A study of Mus musculus with 18 samples.

Results

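The solute carriers, the genes named Slc, encode membrane proteins that move nutrients, ions, metals and metabolites across the plasma membrane and the membranes of organelles. Here 224 of them were followed in mouse bone marrow-derived macrophages given interleukin 4 (IL-4). They were selected on their array signal: a probe had to carry a gene name of Slc and a number, and in at least 1 of the 6 groups that probe had to be flagged well above background on each of the 3 arrays. For each gene the probe with the highest mean signal was kept. Of 308 Slc genes on the array, 235 passed, and 11 of these were left out by name. The 224 that remained are part of 15091 named genes tested. Some of them, pointed out below, bear an Slc name without being carriers. The signal chose the members, so detection is a description here and not a finding. In all, 194 members were well above background on each of the 18 arrays. The other 30 were so in some groups only, and a difference for these is partly fixed by the choice. The 9 members that passed through exactly 1 group had a median level of -6.02. The 12 genes that just missed, with 2 of 3 arrays in their best group, had a median level of -6.81, and 61 genes lay further out. A level is log2 of the processed spot intensity minus the 75th percentile of its array, so 0 marks a probe as bright as that percentile. Levels of different genes come from different probes and are not compared.

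The macrophages were grown in CSF1 from pooled bone marrow of C57BL6/J mice aged 8 to 12 weeks that were heterozygous (Irf4+/-) or homozygous (Irf4-/-) for loss of Irf4, the gene of a transcription factor of lymphoid and myeloid cells. Both genotypes therefore carry the mutation, and no wild-type array was part of the series. Each genotype had mock cultures kept for 18 h without IL-4, and cultures given 10 ng/ml IL-4 for 4 h or for 18 h, so the 4 h cultures also differ from mock in their time in culture. Littermates gave 3 independent experiments, A, B and C, which makes 3 arrays in each of 6 groups. All cells of a genotype in an experiment came from 1 pool of animals. The replicate spread is thus that between pools.

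The 9 macrophage markers looked at, among them Adgre1, Csf1r and Cd68, were well above background on all 18 arrays. Of the neutrophil markers, 5 of 5 on the array were as well, and their summed linear level ran from 18.4 to 21.4 in Irf4+/- mock arrays and from 16.7 to 51.8 in Irf4-/- mock arrays. Of 5 dendritic cell markers, Flt3, Zbtb46 and Xcr1 were above background on all 18 arrays, Ccr7 on 16 and Siglech on 0, and their summed linear level ran from 0.218 to 0.555 over all arrays. The part of other cells in the results was not tested. The single Irf4 probe read between -1.80 and -0.36 on Irf4+/- mock arrays and between -0.97 and -0.53 on Irf4-/- mock arrays. After 4 h of IL-4 it read 1.07 to 2.26 and 1.50 to 2.11. It was no lower on the arrays labelled Irf4-/-. No source used here says where this probe lies relative to the deleted part. It therefore checks nothing about the genotypes, and Irf4-/- below means the arrays so labelled. In experiments A and B each genotype lay on 1 slide of its own, so genotype and slide cannot be told apart there, whereas mock and IL-4 arrays shared a slide. In experiment C the Irf4+/- mock and 4 h arrays lay on slide 5. The Irf4+/- 18 h and Irf4-/- mock arrays lay on slide 6, and both Irf4-/- IL-4 arrays on slide 7. There mock and IL-4 shared a slide only at 4 h in Irf4+/- cells.

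IL-4 acts on macrophages through its receptor and the transcription factor STAT6, and turns them to a state linked to tissue repair and defence against helminths, with a changed use of amino acids, lipids and iron. Carriers decide which substrates enter a cell and which compartment they reach. The SLC30 family moves zinc out of the cytosol and the SLC39 family moves it in. The SLC37 family holds sugar phosphate carriers of the endoplasmic reticulum membrane, though the substrate and place of its member Slc37a3 are less settled. The SLC25 family serves the inner mitochondrial membrane.

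The bases just upstream of 4 carriers that moved with IL-4 in both genotypes are shown because they differ in the letters STAT6 is known to prefer. Each runs 5′ to 3′ on the strand of its gene and ends at the base before the transcription start (RefSeq, GRCm38.p6). Capitals mark any match to TTCNNNNGAA or TTCNNNGAA, the palindromic letters of STAT factors, or to TGCGCAC or TGCACAC, 2 forms of the metal response element, searched on both strands.
Slc30a4, chr2:122702664-122702913, minus strand: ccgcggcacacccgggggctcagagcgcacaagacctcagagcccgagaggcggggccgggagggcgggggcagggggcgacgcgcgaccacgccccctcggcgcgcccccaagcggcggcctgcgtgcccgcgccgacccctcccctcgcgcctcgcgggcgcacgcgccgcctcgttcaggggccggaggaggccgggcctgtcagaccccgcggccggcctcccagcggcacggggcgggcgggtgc
Slc22a5, chr11:53891704-53891953, minus strand: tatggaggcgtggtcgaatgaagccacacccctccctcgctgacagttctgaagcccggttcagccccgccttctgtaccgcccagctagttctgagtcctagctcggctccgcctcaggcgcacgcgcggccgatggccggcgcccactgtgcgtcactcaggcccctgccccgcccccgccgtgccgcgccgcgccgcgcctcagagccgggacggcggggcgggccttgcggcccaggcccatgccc
Slc37a4, chr9:44396696-44396945, plus strand: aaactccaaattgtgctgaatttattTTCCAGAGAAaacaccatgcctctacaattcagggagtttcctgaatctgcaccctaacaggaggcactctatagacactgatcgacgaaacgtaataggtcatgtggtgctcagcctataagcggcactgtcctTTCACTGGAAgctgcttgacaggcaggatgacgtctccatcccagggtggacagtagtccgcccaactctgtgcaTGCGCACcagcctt
Slc16a10, chr10:40142255-40142504, minus strand: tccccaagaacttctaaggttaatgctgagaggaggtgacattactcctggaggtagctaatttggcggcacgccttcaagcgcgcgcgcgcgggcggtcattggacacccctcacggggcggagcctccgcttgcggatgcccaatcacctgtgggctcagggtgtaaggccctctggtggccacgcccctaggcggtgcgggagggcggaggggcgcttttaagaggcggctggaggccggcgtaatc
The Slc37a4 window holds TTCNNNNGAA 224 and 89 bases before the start and TGCGCAC 14 bases before it. The other 3 windows hold none of these letters. Of 170 members with a RefSeq promoter, 9 (5.29%) hold TTCNNNNGAA in this window, against 5.86% of all 27025 promoters. TTCNNNGAA is in 4.71% of the members' windows and 7.18% of all, TGCGCAC in 2.94% and 3.13%, and TGCACAC in 2.35% and 3.49%. Among the 7 carriers with a promoter that rose at 4 h in Irf4+/- cells, Slc37a4 was the 1 with TTCNNNNGAA. A match is a run of letters and not a measured binding site. The Slc30a4 window is 82.8% G and C, against a median of 59.6% for members and 52% for all promoters.

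Among the members called by the test, more rose than fell after 4 h of IL-4 in both genotypes. After 18 h more of those called fell than rose in Irf4+/- cells. At 4 h, 11 of the 224 members rose in the heterozygous cells (4.91%, against 2.39% of all genes) and 5 fell (2.23%, against 1.99%). A gene counts as risen or fallen where the limma test gave a Benjamini-Hochberg adjusted p under 0.05 over all genes. At 18 h, 5 rose (2.23%, against 2.17%) and 9 fell (4.02%, against 2.06%). In Irf4-/- cells 10 rose at 4 h (4.46%, against 2.28%) and 2 fell (0.893%, against 1.75%). At 18 h in these cells 7 rose (3.12%, against 2.17%) and 5 fell (2.23%, against 1.47%). The share that rose at 18 h in Irf4+/- cells and the share that fell at 4 h lay near those of all genes. Called or not, 95 members changed above 0 and 129 below at 4 h in Irf4+/- cells (7192 and 7898 of all genes). In Irf4-/- cells at 4 h it was 132 above and 92 below (8765 and 6326 of all genes). Together, 28 members were called in at least 1 of these 4 comparisons. Slc16a10, Slc30a4 and Slc37a3 were called in all 4. For each of these calls the 2 groups of arrays did not overlap, and each experiment moved the same way. The test used these same values, so this describes the calls and adds no support. The share over all genes was not worked out. The median change of all genes was -0.02, 0.02, 0.08 and 0.12 in these comparisons, in the order given, and that of the members -0.08, -0.03, 0.10 and 0.08.

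**Figure D1:**
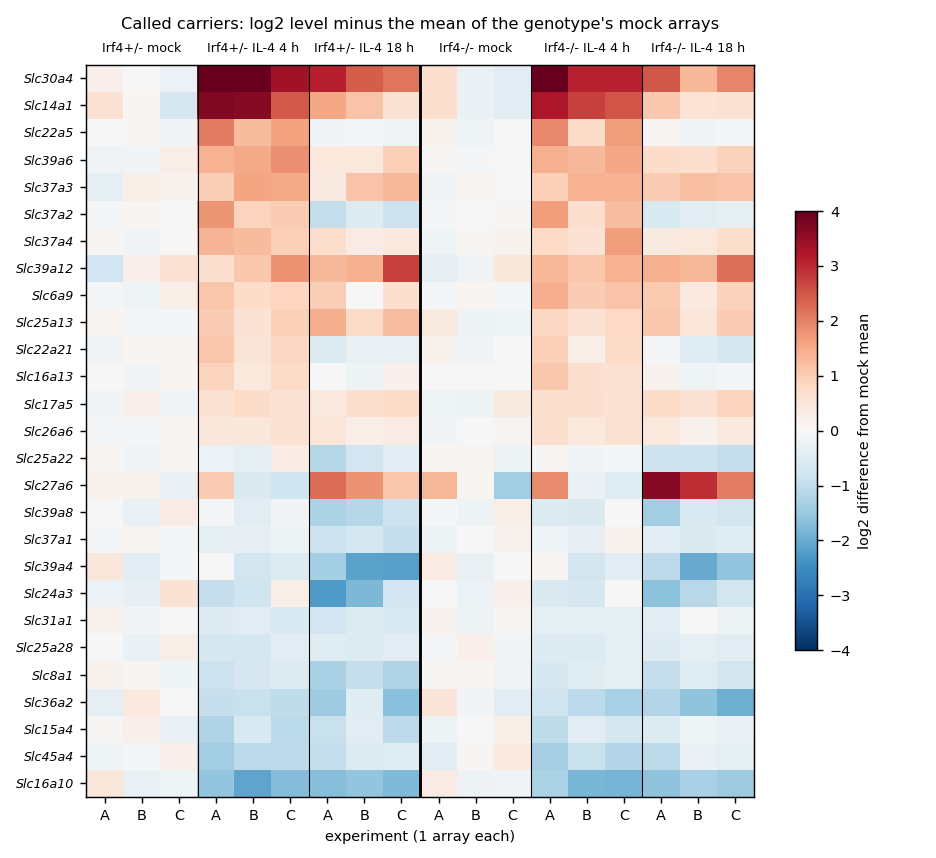
Each row is 1 of 27 of the 28 called carriers and each column 1 array, ordered by group and experiment. Colour is the log2 level minus the mean of the 3 mock arrays of that genotype (red higher, blue lower, scale -4 to 4). Slc30a4 and Slc14a1 stand out in red after 4 h and have faded by 18 h, Slc16a10 is blue at both times, and Slc39a4 and Slc24a3 turn blue at 18 h.

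Experiments differed from each other in a way shared by all groups, and a fit with the experiment as a block took this out. Under the block 65 members were called at 4 h in Irf4+/- cells (18.4% of all genes), 51 at 18 h (15.7%), 63 at 4 h in Irf4-/- cells (18.5%) and 48 at 18 h (18.4%). That was 29%, 22.8%, 28.1% and 21.4% of the members. By direction, 40 rose and 25 fell at 4 h in Irf4+/- cells (1524 and 1256 of all genes), and 23 rose and 28 fell at 18 h (1176 and 1187). In Irf4-/- cells 39 rose and 24 fell at 4 h (1542 and 1243 of all genes), and 27 rose and 21 fell at 18 h (1760 and 1024). The share that fell at 4 h in Irf4-/- cells, 0.893% of the members without the block, was 10.7% with it. The block kept all 65 calls made without it over the 11 comparisons. A carrier that passed only with the block is said so below. The other 125 members passed in none of the 4 comparisons under either fit.

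With 3 arrays a group, many calls leaned on single arrays. Leaving out each of the 18 arrays in turn never turned the sign of a named call, and 23 of 64 held throughout. Among these were Slc30a4, Slc14a1, Slc22a5 and Slc39a6 at 4 h in both genotypes and Slc16a10 in all 4 comparisons. Slc37a2 at 4 h in Irf4+/- was lost without its array A of that group (change 0.95, adjusted p 0.0516), and Slc37a3 at 4 h in Irf4-/- without array C of that group (adjusted p 0.0619). At 18 h in Irf4-/- cells, the number of members called fell from 12 to 1 without array C of that group. Some calls near the threshold were lost with 10 or more of the 18 arrays left out in turn. At 4 h in Irf4+/- cells these were Slc6a9 and Slc25a28 (14 each) and Slc25a13 and Slc22a21 (12 each). At 18 h in Irf4+/- cells they were Slc37a3 (16), Slc25a22 (15) and Slc36a2 (14). At 18 h in Irf4-/- cells they were Slc25a13 (13), Slc39a12 (12) and Slc27a6 (10). Between 4 h and 18 h they were Slc39a4 in Irf4+/- cells (13), and Slc22a21 (13) and Slc16a13 (17) in Irf4-/- cells. The normexp background correction left 20 of the 64 calls.

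The largest fitted rise among the called carriers was in a zinc carrier. Slc30a4 encodes ZnT4, which loads zinc into vesicles. On Irf4+/- mock arrays its level was -1.04, -1.23 and -1.49 in experiments A, B and C. It read 3.21, 2.71 and 2.12 after 4 h and 1.86, 1.17 and 0.89 after 18 h. Every IL-4 array lay above every mock array, and experiment A was highest at both times. The rise was 15.3-fold at 4 h (log2 change 3.93, SE 0.40, limma adjusted p 4.38e-05) and 5.89-fold at 18 h (adjusted p 0.00126). Irf4-/- cells read -0.33, -1.27 and -1.42 in mock, 2.99, 2.07 and 2.09 at 4 h, and 1.48, 0.31 and 0.94 at 18 h. Their rise was 10.5-fold at 4 h (log2 change 3.39, SE 0.40, adjusted p 0.000177) and 3.78-fold at 18 h (adjusted p 0.0116).

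Slc39a6 encodes ZIP6, which brings zinc into the cytosol, and it rose at 4 h as well. Its Irf4+/- levels were 3.00, 3.05 and 3.42 in mock, 4.55, 4.68 and 5.00 at 4 h, and 3.57, 3.59 and 4.11 at 18 h. The 4 h arrays stood clear of all others. The rise was 2.99-fold at 4 h in Irf4+/- (log2 change 1.58, SE 0.18, adjusted p 0.000149) and 2.67-fold in Irf4-/- cells (adjusted p 0.000401). At 18 h it was 1.51-fold in Irf4+/- (adjusted p 0.0969, and 0.00341 with the block) and 1.71-fold in Irf4-/- (adjusted p 0.028). Slc39a12, for the zinc importer ZIP12, was dim. It read -5.10, -4.12 and -3.76 in Irf4+/- mock and -3.02, -2.90 and -1.59 at 18 h. It rose 3.53-fold at 18 h in Irf4+/- (log2 change 1.82, SE 0.43, adjusted p 0.0246) and 3.14-fold in Irf4-/- cells (adjusted p 0.0475).

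Other zinc importers fell late. Slc39a4 encodes ZIP4, known for zinc uptake in the gut. Its Irf4+/- levels were 3.43, 2.54 and 2.92 in mock, 2.95, 2.24 and 2.41 at 4 h, and 1.60, 0.83 and 0.80 at 18 h. The 4 h arrays overlapped mock and the 18 h arrays did not. The fall at 18 h was 3.69-fold in Irf4+/- (log2 change -1.88, SE 0.33, adjusted p 0.00328) and 2.91-fold in Irf4-/- cells (adjusted p 0.0155). Slc39a8 encodes ZIP8, a carrier of zinc, manganese and cadmium. It read -0.80, -1.10 and -0.46 in Irf4+/- mock and -2.05, -1.92 and -1.62 at 18 h. It fell 2.11-fold there (log2 change -1.08, SE 0.24, adjusted p 0.019). Over the alternative settings Slc39a8 changed by as little as -0.26 in that comparison. Its change at 18 h in Irf4-/- cells was -0.91, with an adjusted p of 0.0527 (0.00347 with the block). The difference between genotypes was 0.16 (SE 0.34) and did not pass.

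Slc31a1 encodes the copper importer CTR1, and it fell by a small amount. It read 3.42, 3.17 and 3.26 in Irf4+/- mock and 2.53, 2.73 and 2.69 at 18 h. The fall was 1.55-fold (log2 change -0.64, SE 0.15, adjusted p 0.0213). Irf4-/- arrays read 2.88, 3.29 and 3.09 at 18 h, which overlapped their mock values of 3.43, 3.12 and 3.37. A second probe of Slc31a1 changed by -0.45 in Irf4+/- and -0.46 in Irf4-/- cells at 18 h. How far the genotypes differ thus depends on the probe. Of 24 members that carry metals or heme, 2 rose and 0 fell at 4 h in Irf4+/- cells (2.39% and 1.99% of all genes), and 2 rose and 3 fell at 18 h (2.17% and 2.06%). Their median change was -0.00 and -0.03, against -0.02 and 0.02 for all genes. Of the 13 Slc39 members, 1 rose at 4 h, and 1 rose and 2 fell at 18 h in these cells.

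Slc30a1, the zinc exporter of the plasma membrane, changed by 0.98 at 4 h and 1.09 at 18 h in Irf4+/- cells and passed only with the block (adjusted p 0.0144 and 0.00901). One Irf4+/- mock value of this probe was missing and left out of the fit. Slc39a1, Slc39a10 and Slc39a14 were not called without the block in any of the 4 comparisons. Slc39a10 passed with the block at 18 h in Irf4+/- cells (change 0.54, adjusted p 0.0308). Slc39a14, for the zinc and iron importer ZIP14, did so in Irf4-/- cells (-0.72 at 4 h and -0.74 at 18 h).

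**Figure D2:**
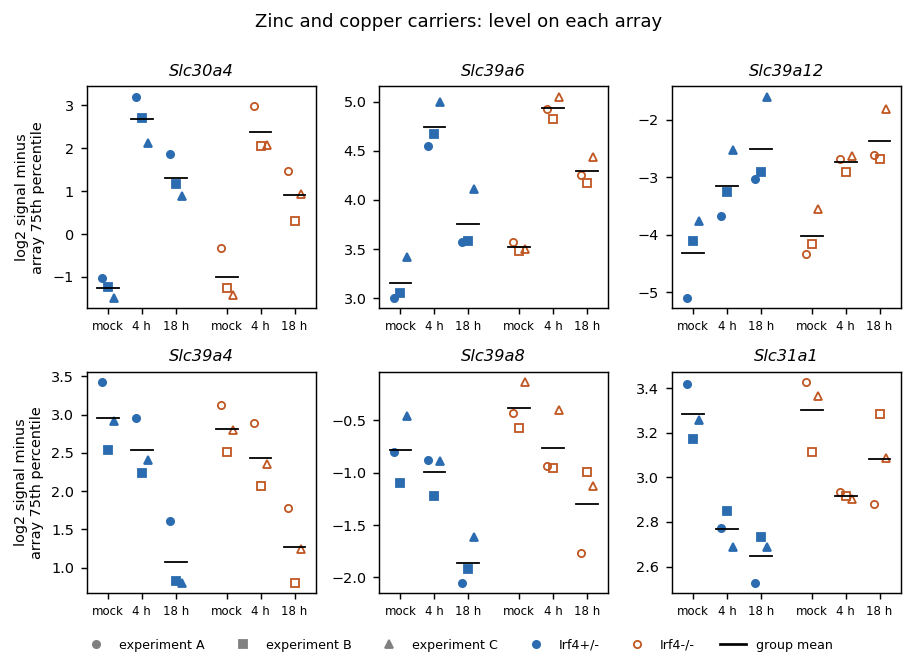
Levels (log2 signal minus the array's 75th percentile) of 6 metal carriers on all 18 arrays, by genotype and time after IL-4, with a line at each group mean and a symbol for each experiment. Vertical scales differ between panels. Slc30a4 and Slc39a6 peak at 4 h in both genotypes, and Slc39a4 is lowest at 18 h.

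The 7 genes listed as a metal response did not move as one. Tfrc, the transferrin receptor that brings in iron, rose in Irf4+/- cells by 1.65 at 4 h and 2.42 at 18 h on the log2 scale (adjusted p 0.0187 and 0.00123). Hmox1, which breaks down heme, fell by 1.29 at 4 h in Irf4+/- and by 0.93 in Irf4-/- cells (adjusted p 0.00442 and 0.0364). The metallothionein genes Mt1 and Mt2, which answer to zinc, were not called. Mt1 changed by 0.54 at 18 h in Irf4+/- and 0.61 in Irf4-/- cells, and passed only with the block (adjusted p 0.0321 and 0.0181).

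All 4 genes of the sugar phosphate family SLC37 were members, and they took different courses. Slc37a2 rose at 4 h and lay below mock at 18 h. Its Irf4+/- levels were 2.94, 3.11 and 3.04 in mock, 4.80, 3.91 and 4.05 at 4 h, and 2.08, 2.51 and 2.16 at 18 h. The 3 groups did not overlap. The rise was 2.34-fold at 4 h in Irf4+/- (log2 change 1.23, SE 0.25, adjusted p 0.0105) and 2.28-fold in Irf4-/- cells (adjusted p 0.0137). At 18 h the change was -0.78 in Irf4+/- (adjusted p 0.122, and 0.0465 with the block) and -0.46 in Irf4-/-.

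Slc37a4 encodes the glucose 6-phosphate transporter that feeds glucose 6-phosphatase, and its promoter is the one with both STAT-like runs printed above. It read 2.33, 2.15 and 2.28 in Irf4+/- mock, 3.60, 3.53 and 3.22 at 4 h, and 2.95, 2.57 and 2.65 at 18 h. It rose 2.29-fold at 4 h in Irf4+/- (log2 change 1.20, SE 0.23, adjusted p 0.00752) and 2.02-fold in Irf4-/- cells (adjusted p 0.0224). The Irf4-/- array of experiment C read 3.89 at 4 h, against 3.03 and 2.82 in A and B.

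Slc37a3, a family member with a less settled substrate, was called at both times. It read 0.30, 0.93 and 0.86 in Irf4+/- mock, 1.66, 2.28 and 2.22 at 4 h, and 1.07, 1.85 and 2.03 at 18 h. No IL-4 array fell as low as a mock array. The rise was 2.56-fold at 4 h (adjusted p 0.00548) and 1.94-fold at 18 h (adjusted p 0.0484), where the call was lost with 16 of the 18 arrays left out in turn. Irf4-/- cells gave 2.37-fold and 2.17-fold (adjusted p 0.0107 and 0.0225).

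Slc37a1 went the other way and late. It read -0.02, 0.13 and -0.01 in Irf4+/- mock and -0.82, -0.66 and -0.92 at 18 h. The fall was 1.78-fold (log2 change -0.83, SE 0.16, adjusted p 0.00502). In Irf4-/- cells the change was -0.49 and passed only with the block (adjusted p 0.021). The difference of 0.35 (SE 0.22) between genotypes did not pass.

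Of the other sugar carriers, Slc45a4 was called. It belongs to a family of proton-coupled sugar carriers. Its Irf4+/- levels were 3.72, 3.83 and 4.08 in mock and 2.50, 2.84 and 2.82 at 4 h. It fell 2.23-fold at 4 h in Irf4+/- and 2.19-fold in Irf4-/- cells (adjusted p 0.0122 and 0.0155). Slc2a4, for the insulin-regulated glucose carrier GLUT4, was well above background on 3 of 3 arrays of each IL-4 group, but on 1 of 3 Irf4+/- and 2 of 3 Irf4-/- mock arrays. It passed detection through the IL-4 groups, and it was picked out here after its values were seen, so this is a description. Slc2a8 and Slc2a9, for carriers of hexoses and urate, were called under neither fit. Slc2a6 passed with the block in Irf4-/- cells at 4 h (change 0.43, adjusted p 0.033). Of 18 sugar carriers, 3 rose and 1 fell at 4 h in each genotype, against 2.39% and 1.99% of all genes in Irf4+/- and 2.28% and 1.75% in Irf4-/- cells.

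Of 12 members of the organic ion and carnitine family Slc22, 2 rose and 0 fell at 4 h in Irf4+/- cells (2.39% and 1.99% of all genes). At 18 h in these cells 0 were called by limma under either fit. Of all genes, 2.17% rose and 2.06% fell there, and 15.7% were called with the block. In Irf4-/- cells at 18 h, 0 were called without the block and 1 rose with it (18.4% of all genes were called). Slc22a5 encodes OCTN2, which takes carnitine up for fatty acid entry into mitochondria. It read -0.77, -0.72 and -0.89 in Irf4+/- mock, 1.28, 0.48 and 0.82 at 4 h, and -0.91, -0.89 and -0.95 at 18 h. The 18 h arrays lay at or just below mock, and the 4 h arrays lay far above both. The rise at 4 h was 3.15-fold in Irf4+/- (log2 change 1.65, SE 0.25, adjusted p 0.00134) and 2.75-fold in Irf4-/- cells (adjusted p 0.00363). At 18 h the changes were -0.12 and -0.05.

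Slc22a21, which encodes the mouse carnitine carrier OCTN3, lies beside Slc22a5 on chromosome 11, followed by Slc22a4. On the other side of Slc22a5 in the annotation are Irf1 and the cytokine genes Il5 and Il13. Slc22a21 read -1.70, -1.47 and -1.49 in Irf4+/- mock and -0.46, -1.04 and -0.74 at 4 h. It rose 1.75-fold there (log2 change 0.81, SE 0.21, adjusted p 0.0454). In Irf4-/- cells its change of 0.65 passed only with the block (adjusted p 0.0262). Slc22a4, for the ergothioneine carrier OCTN1, moved the opposite way. It read -1.33, -0.46 and -0.08 in Irf4+/- mock and -2.71, -1.67 and -1.29 at 4 h. The change was -1.27 in both genotypes, and it passed only with the block (adjusted p 0.00873 and 0.00895).

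**Figure D3:**
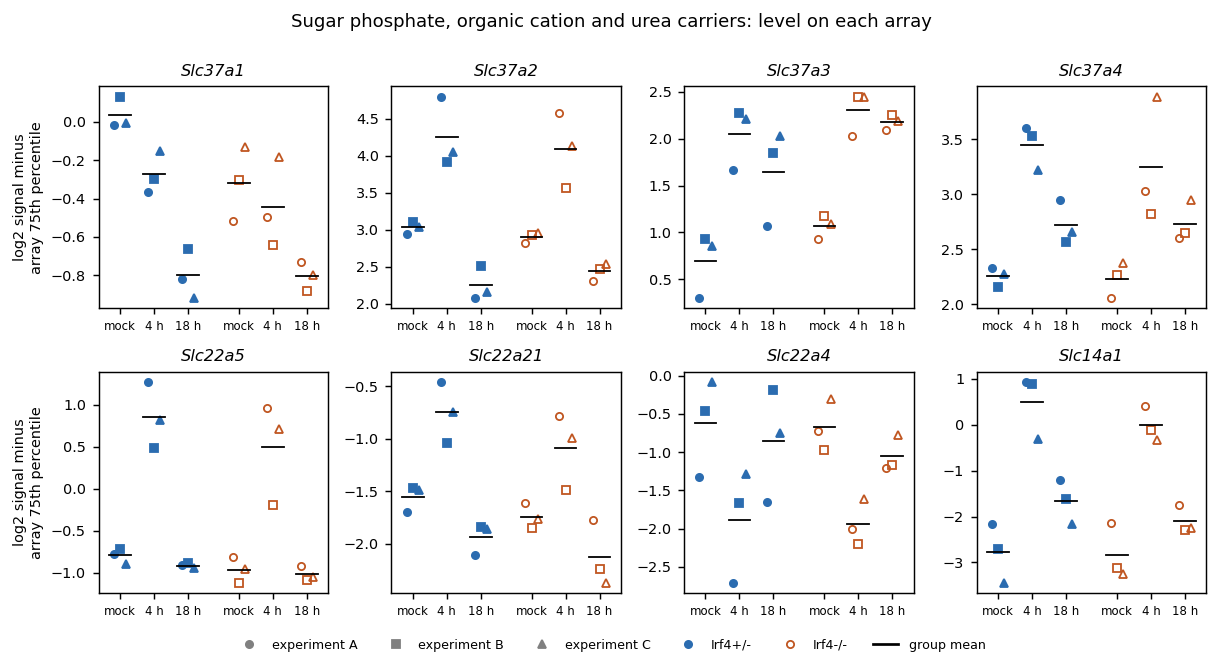
Levels (log2 signal minus the array's 75th percentile) of the 4 Slc37 genes, 3 neighbouring Slc22 genes and Slc14a1 on all 18 arrays, by genotype and time, with group means as lines. Vertical scales differ between panels. Slc37a2, Slc22a5 and Slc14a1 are highest at 4 h, Slc14a1 and Slc37a3 are above their mock mean at 18 h, and Slc37a1 is lowest at 18 h.

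Slc16a10 fell at both times in both genotypes. It encodes TAT1, which passes aromatic amino acids and thyroid hormone. It read 2.66, 1.94 and 2.06 in Irf4+/- mock, 0.64, 0.12 and 0.49 at 4 h, and 0.51, 0.63 and 0.47 at 18 h. Irf4-/- levels were 2.60, 2.07 and 2.14, then 1.00, 0.44 and 0.42, then 0.67, 0.98 and 0.86. No IL-4 array reached a mock array. The fall in Irf4+/- was 3.50-fold at 4 h (log2 change -1.81, SE 0.23, adjusted p 0.000302) and 3.21-fold at 18 h (adjusted p 0.000455). In Irf4-/- cells it was 3.13-fold and 2.70-fold (adjusted p 0.000712 and 0.00197). The 2 other probes of the gene changed by -1.21 and -1.87 at 4 h and by -0.58 and -1.51 at 18 h in Irf4+/- cells, so the size at 18 h depends on the probe.

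Slc16a13, a monocarboxylate carrier gene, rose at 4 h by 1.61-fold in Irf4+/- and 1.73-fold in Irf4-/- cells (adjusted p 0.0368 and 0.017). It read -1.01, -1.12 and -0.93 in Irf4+/- mock, -0.14, -0.59 and -0.26 at 4 h, and was back at -1.02, -1.24 and -0.82 at 18 h. Slc13a3, for a dicarboxylate carrier, was singled out after its values were seen. Its change at 18 h was -1.87 in Irf4+/- and -2.07 in Irf4-/- cells and passed only with the block (adjusted p 0.002 and 0.00111). Slc16a6 and Slc16a7 were called under neither fit.

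Slc14a1 was the second large early rise. It encodes the urea carrier UT-B, and urea is the by-product when arginase cleaves arginine. It read -2.16, -2.70 and -3.45 in Irf4+/- mock, 0.93, 0.88 and -0.31 at 4 h, and -1.21, -1.62 and -2.16 at 18 h. The 4 h arrays lay above all others of the genotype. The rise was 9.65-fold in Irf4+/- (log2 change 3.27, SE 0.41, adjusted p 0.000302) and 7.09-fold in Irf4-/- cells (adjusted p 0.00106). At 18 h the changes were 1.10 and 0.74 and passed only with the block (adjusted p 0.00193 and 0.0216). A second probe gave 3.12 and 2.83 at 4 h.

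Carriers of calcium also moved. Slc8a1 encodes the sodium-calcium exchanger NCX1 of the plasma membrane. It read -0.35, -0.44 and -0.66 in Irf4+/- mock, -1.34, -1.14 and -1.04 at 4 h, and -1.79, -1.45 and -1.70 at 18 h. It fell 1.61-fold at 4 h and 2.24-fold at 18 h (adjusted p 0.0255 and 0.000618). The other 3 probes fell too at 18 h in Irf4+/- cells but over a wide range, with changes of -1.53, -0.38 and -0.56. The fall at 18 h was 1.65-fold in Irf4-/- cells (adjusted p 0.0222). Slc24a3, for a potassium-dependent exchanger of sodium and calcium, read -1.33, -1.41 and -0.49 in Irf4+/- mock and -3.35, -2.88 and -1.85 at 18 h. Experiment C was the highest in both groups. The fall was 3.06-fold (log2 change -1.61, SE 0.41, adjusted p 0.0358). Over the alternative settings the change was as small as -0.26, and the call was lost with 5 of the 18 arrays left out in turn.

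Slc26a6, an exchanger of chloride with other anions, rose 1.47-fold at 4 h in Irf4-/- cells (adjusted p 0.0325) and changed 1.42-fold in Irf4+/- cells (adjusted p 0.0506, and 0.00304 with the block). Of 41 members placed with inorganic ions and pH, 1 rose and 1 fell at 4 h in Irf4+/- cells (2.39% and 1.99% of all genes), and 1 rose and 2 fell at 18 h (2.17% and 2.06%). The 1 that rose at 4 h was Slc14a1, which carries urea and no ion. The list also holds Slc9a3r1 and Slc9a3r2, scaffold proteins named after the exchanger they bind. Slc4a1ap, likewise in the list, is named as an adaptor protein of a carrier and is not one itself. Slc12a2 and Slc4a7 were called under neither fit.

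Of 40 members placed with amino acids and peptides, 1 rose and 1 fell at 4 h in Irf4+/- cells, near the shares of all genes (2.39% and 1.99%). The 40 include Slc7a6os, which is named for the strand opposite Slc7a6 and is not a carrier. At 18 h 1 fell in each genotype (2.06% of all genes in Irf4+/- and 1.47% in Irf4-/- cells). With the block 5 rose and 5 fell at 4 h in Irf4+/- cells (1524 and 1256 of all 15091 genes). Slc6a9 encodes the glycine carrier GLYT1. It read -0.97, -1.10 and -0.70 in Irf4+/- mock and 0.17, -0.18 and -0.07 at 4 h. Irf4-/- arrays read -0.85, -0.72 and -0.87, then 0.63, 0.19 and 0.33. The rise was 1.86-fold in Irf4+/- (adjusted p 0.0469) and 2.29-fold in Irf4-/- cells (log2 change 1.20, SE 0.24, adjusted p 0.00909).

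Slc15a4 carries histidine and peptides out of lysosomes and is needed for signalling by endosomal Toll-like receptors. It read 4.56, 4.73 and 4.25 in Irf4+/- mock and 3.32, 3.91 and 3.43 at 4 h. It fell 1.95-fold (log2 change -0.96, SE 0.23, adjusted p 0.0238). The Irf4-/- change was -0.73 and passed only with the block (adjusted p 0.00573). Slc36a2, for the proton-coupled amino acid carrier PAT2, was dim. It read -2.61, -3.23 and -3.57 in Irf4-/- mock and -4.32, -4.75 and -5.08 at 18 h, a fall of 2.99-fold (adjusted p 0.0107). In Irf4+/- cells the fall was 2.30-fold (adjusted p 0.0496). With the normexp background correction the Irf4+/- change was 0.97, of the opposite sign and not called.

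The large neutral amino acid carriers belong with the heavy chain CD98, encoded by Slc3a2. Slc3a2 changed by 0.09 and -0.03 in Irf4+/- cells and was called under neither fit. Its light chains differed. Slc7a6 changed by 1.11 and 0.87 at 4 h and passed only with the block (adjusted p 0.0022 and 0.0105). Slc7a7 changed by -0.77 and -1.24 in Irf4+/- cells at 4 h and 18 h, also with the block only (adjusted p 0.0461 and 0.00386). Slc7a5 changed by 0.79 and 1.08 at 4 h with an SE of 0.89, and passed with the block in Irf4-/- cells (adjusted p 0.0286). Slc7a8 passed in none. For glutamine and related amino acids, Slc1a5, Slc38a1, Slc38a2 and Slc36a1 were called under neither fit. The serine and alanine carrier gene Slc1a4 passed with the block at 4 h in Irf4+/- cells (change 0.88, adjusted p 0.0487). Slc6a8, for the creatine carrier, changed by -0.67 and -0.64 at 4 h and passed with the block (adjusted p 0.00147 and 0.00212). Slc6a6, for taurine, did so in Irf4+/- cells (change -0.70, adjusted p 0.0113), and Slc43a2 in Irf4-/- cells (change -1.45, adjusted p 0.0371). The lysosomal carrier Slc15a3 passed with the block at 18 h in Irf4+/- cells (change 0.48, adjusted p 0.0497).

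Of the 12 genes listed as a response to amino acid shortage, Atf3 was called. It encodes a stress-induced transcription factor, and rose at 18 h by 1.03 in Irf4+/- and 1.17 in Irf4-/- cells on the log2 scale (adjusted p 0.0255 and 0.0123). At that time 2.17% of all genes rose in each genotype. Asns, which makes asparagine, Chac1 and Trib3 were called at neither time. The list's median change was 0.36 at 4 h in Irf4+/- cells, with 11 of 12 above 0 and 0 called. Of all 15091 genes, 7192 were above 0 there and the median was -0.02, while 2.39% rose and 1.99% fell.

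Of 30 mitochondrial carriers, 1 rose and 1 fell at each time in Irf4+/- cells, near the shares of all genes (2.39% and 1.99% at 4 h, 2.17% and 2.06% at 18 h). Slc25a13 encodes citrin, which exports aspartate for the malate-aspartate shuttle and the urea cycle. It read 1.50, 1.37 and 1.37 in Irf4+/- mock, 2.42, 1.99 and 2.36 at 4 h, and 2.88, 2.17 and 2.65 at 18 h. The rise was 1.79-fold at 4 h (adjusted p 0.0463) and 2.23-fold at 18 h (log2 change 1.15, SE 0.22, adjusted p 0.00676). It was 1.82-fold at 18 h in Irf4-/- cells (adjusted p 0.0474). Slc25a22, for a glutamate carrier, fell at 18 h by 1.70-fold in Irf4+/- and 1.81-fold in Irf4-/- cells (adjusted p 0.0455 and 0.0269). Its Irf4+/- levels were 0.58, 0.39 and 0.56 in mock and -0.62, -0.25 and 0.10 at 18 h.

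Both mitoferrins, which bring iron into mitochondria, were lower. Slc25a28 read 2.34, 2.03 and 2.56 in Irf4+/- mock and 1.59, 1.59 and 1.90 at 4 h, and fell 1.53-fold (adjusted p 0.0411). Slc25a37 changed by -0.96 and -1.13 in Irf4+/- and by -1.10 and -0.97 in Irf4-/- cells, and passed only with the block (adjusted p 0.0103, 0.00401, 0.00482 and 0.0113). Slc25a5, for an ATP and ADP exchanger, changed by 0.65 and 0.67 at 18 h and passed with the block (adjusted p 0.0064 and 0.00548). Slc25a3, for phosphate, passed with the block at 18 h (changes 0.40 and 0.34, adjusted p 0.0271 and 0.0489), and its other probes gave -0.16 and 0.02 in Irf4+/- cells. Slc25a1, Slc25a4, Slc25a10 and Slc25a11 were called under neither fit. Slc25a29, for basic amino acids, was picked out after its values were seen, with changes of 1.10 and 0.96 at 4 h (adjusted p 0.000109 and 0.000332 with the block).

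**Figure D4:**
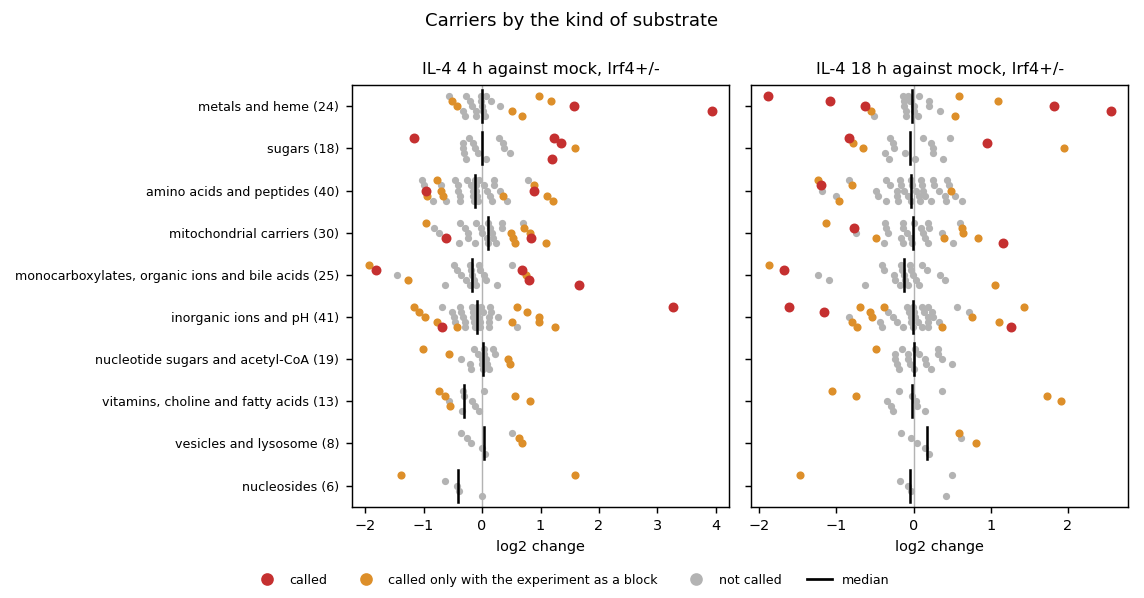
Log2 change in Irf4+/- cells (horizontal axis) at 4 h and 18 h after IL-4 for the 224 carriers, 1 point each, grouped by kind of substrate with the number of members in brackets and a bar at each group's median. Red points were called, orange points were called only with the experiment as a block, and group medians run from -0.41 (nucleosides) to 0.10 (mitochondrial carriers) at 4 h and from -0.12 to 0.17 at 18 h.

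Of 6 nucleoside carriers, 0 were called by limma without the block in the 4 comparisons. Between 1.47% and 2.39% of all genes were called in each direction, so 0 of 6 says little. At each time in Irf4+/- cells 1 had an unadjusted p under 0.05 (2099 and 1878 of 15091 genes). Slc28a2 encodes CNT2, a concentrating carrier of purine nucleosides. It read 0.92, 2.95 and 2.19 in Irf4+/- mock, -0.35, 1.14 and 1.11 at 4 h, and -0.84, 1.55 and 0.95 at 18 h. The experiments differed by more than the groups did, so the groups overlapped, yet each experiment fell. The changes were -1.39, -1.47, -1.56 and -1.40 across the 4 comparisons, with an SE of 0.68 without the block and adjusted p of 0.000277, 0.000187, 0.000129 and 0.00032 with it. Slc29a2, for the equilibrative carrier ENT2, was singled out after its values were seen. It changed by 1.58 and 1.50 at 4 h and passed with the block (adjusted p 6.96e-05 and 0.00012). Slc29a1 and Slc29a3 were called under neither fit.

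Of 13 carriers of vitamins, choline and fatty acids, Slc27a6, described below among the dim members, was the 1 called without the block. It rose at 18 h in Irf4-/- cells, where 2.17% of all genes rose. Slc44a1, a choline carrier gene, changed by -1.06 in Irf4+/- and -1.09 in Irf4-/- cells at 18 h (adjusted p 0.0999 and 0.0987, and 0.000303 and 0.000287 with the block). Slc19a1 and Slc19a2, for folate and thiamine, changed by 0.56 and 0.83 at 4 h in Irf4+/- cells and passed with the block (adjusted p 0.0351 and 0.000127). Slc23a2, for ascorbate, changed by -0.64 and -0.74 at 4 h and passed with the block (adjusted p 0.0163 and 0.00706). The fatty acid carrier genes Slc27a1 and Slc27a4 were called under neither fit. Slc20a1, for phosphate, changed by -1.16 and -1.38 at 4 h (adjusted p 0.0232 and 0.00969 with the block), but a second probe gave 0.02 and 0.06.

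Of 19 carriers of nucleotide sugars and acetyl-CoA, which serve glycosylation in the Golgi and endoplasmic reticulum, 0 were called without the block in any of the 4 comparisons. Between 1.47% and 2.39% of all genes were called in each direction, so 0 of 19 says little. At 4 h in Irf4+/- cells 3 had an unadjusted limma p under 0.05 (2099 of 15091 genes). Slc35b1 passed with the block at 4 h in Irf4+/- cells (change 0.49, adjusted p 0.0367), and Slc35a1 and Slc33a1 in neither fit. Slc17a5 encodes sialin, which releases sialic acid from lysosomes. It read 0.85, 0.83 and 1.39 in Irf4-/- mock and 1.77, 1.60 and 1.90 at 18 h, and rose 1.66-fold (log2 change 0.73, SE 0.17, adjusted p 0.0284). Its change in Irf4+/- cells was 0.59 (adjusted p 0.0796, and 0.016 with the block). Slc9a9, for an endosomal proton exchanger, passed with the block at 18 h in Irf4+/- cells (change -0.54, adjusted p 0.0342).

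Of the members seen in some groups only, Slc27a6 was called. It encodes a fatty acid transport protein. It was well above background on 3 of 3 arrays at 18 h in Irf4-/- cells and on 0 of 3 in mock, and it became a member through the 18 h groups. Its Irf4-/- levels were -6.36, -7.60 and -9.07 in mock and -4.05, -4.72 and -5.62 at 18 h. Mock has only a bound, so the 18 h arrays were at least 3.66-fold higher, taken against the lowest signal well above background on each mock array. The fitted change passed the test (adjusted p 0.04 without this bound), but the choice of members partly fixed that, and the call was lost with 10 of the 18 arrays left out in turn. Over the alternative settings the fitted log2 change went as low as 0.06, so the size depends on the processing. The bound holds for the processed intensity used here. In Irf4+/- cells 3 of 3 arrays were above background at 18 h and 0 of 3 in mock, a level at least 3.28-fold higher that was not called.

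From 4 h to 18 h of IL-4 the calls without the block were all falls. In Irf4+/- cells 0 members rose (0.55% of all genes) and 6 fell (2.68%, against 0.643%). In Irf4-/- cells 0 rose (0.345%) and 5 fell (2.23%, against 0.265%). With the block 44 and 34 members were called (11.6% and 8.56% of all genes). Of these, 13 rose and 31 fell in Irf4+/- cells (787 and 971 of all genes). In Irf4-/- cells 10 rose and 24 fell (727 and 565 of all genes). In both genotypes Slc14a1, Slc37a2, Slc22a5 and Slc22a21 fell from 4 h to 18 h. Slc14a1 fell 4.49-fold in Irf4+/- and 4.24-fold in Irf4-/- (adjusted p 0.018 and 0.0341). Slc37a2 fell 4.02-fold and 3.15-fold (adjusted p 0.000863 and 0.00642), and Slc22a5 3.42-fold and 2.85-fold (adjusted p 0.00274 and 0.012). Slc22a21 fell 2.28-fold and 2.06-fold (adjusted p 0.0124 and 0.0437). Slc39a6 and Slc39a4 fell in Irf4+/- cells by 1.98-fold and 2.74-fold (adjusted p 0.0147 and 0.0487), and Slc16a13 in Irf4-/- cells by 1.77-fold (adjusted p 0.0497). Slc30a4, still above mock at 18 h, changed by -1.38 and -1.47 and passed only with the block (adjusted p 0.000839 and 0.00086). These comparisons share the 4 h arrays with those against mock.

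Most carriers called in 1 genotype were called in the other as well. No array is shared between them, though littermates and experiments are. At 4 h, 11 members were called in both genotypes, which is 68.8% of the Irf4+/- calls and 91.7% of the Irf4-/- calls. At 18 h it was 9 members, or 64.3% and 75%. Of the 17 members called in either genotype at 4 h and the 17 at 18 h, 0 had opposite signs. With the block, 2 of 76 at 4 h and 6 of 62 at 18 h had opposite signs. Over the 194 members seen on all arrays, Pearson's r between the changes of both genotypes was 0.921 at 4 h and 0.862 at 18 h, a description across genes that share arrays and experiments. Overlap, signs and r were not worked out for all genes, so they show nothing particular to carriers.

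**Figure D5:**
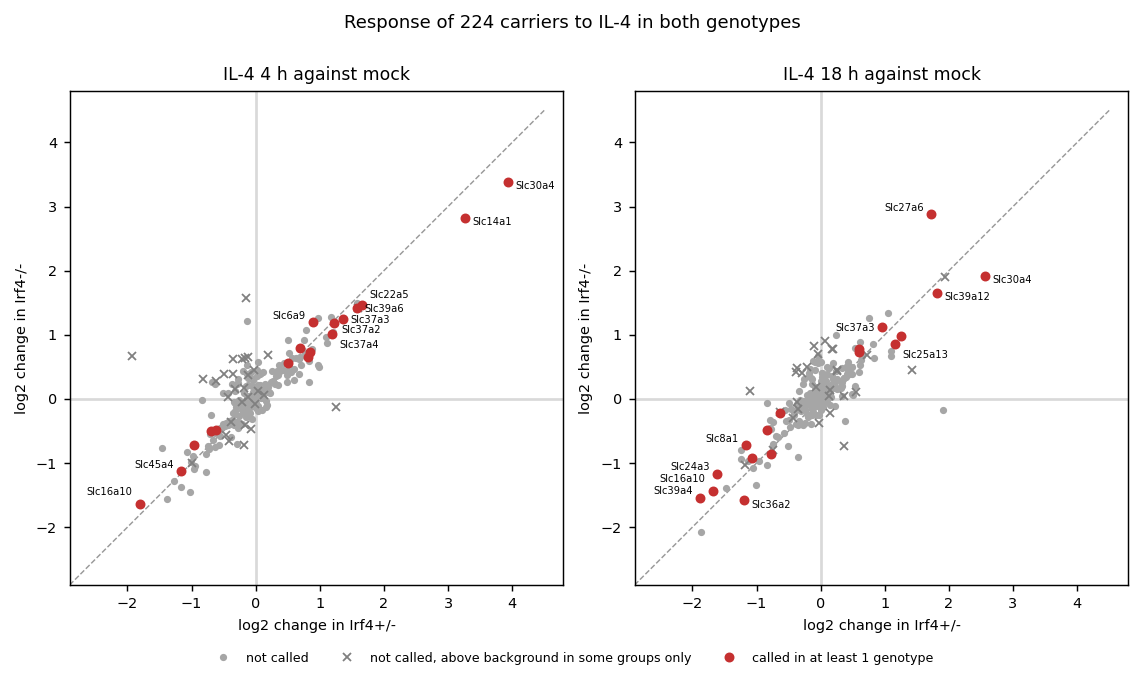
Log2 change of the 224 carriers against mock in Irf4+/- cells (horizontal) and Irf4-/- cells (vertical) at 4 h and 18 h, with equality as a dashed line. Red points were called in at least 1 genotype, and most of those with a change over 1.1 are named. Called carriers lie near the line, with Slc27a6 at 18 h the farthest from it, and crosses are uncalled members above background in some groups only.

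The test of the difference in response called 0 members and 0% of all genes at either time, without the block and with it. For Slc30a4 the Irf4-/- response differed by -0.54 (SE 0.56) at 4 h and by -0.64 (SE 0.56) at 18 h. For Slc31a1, called at 18 h in Irf4+/- only, the difference was 0.42 (SE 0.21, unadjusted p 0.0633, adjusted p 1). The second probe of Slc31a1 gave a difference of -0.01. In each test of the difference, 1 member had an unadjusted limma p under 0.05, against 58 and 83 of 15091 genes. These members were Slc13a5 at 4 h and Slc27a3 at 18 h.

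Direct comparison of Irf4-/- with Irf4+/- called 0 members in mock (0% of all genes), 0 after 4 h (0%) and 0 after 18 h (0.0265%) by limma. An unadjusted limma p under 0.05 was reached by 6, 2 and 11 members, against 357, 121 and 459 of 15091 genes. With the block it called 1 member in mock (0.0331% of all genes), 0 after 4 h (0.0265%) and 0 after 18 h (0.457%). The 1 was Slc26a4, for the anion exchanger pendrin. It read -7.92, -2.54 and -6.41 in Irf4+/- mock and -5.04, -1.20 and -3.61 in Irf4-/- mock. Experiment B was far above the others in both genotypes, and within each experiment the Irf4-/- array was higher. The adjusted p was 1 without the block and 0.0385 with it. This member was well above background on 2 of 3 Irf4+/- mock arrays, so its lowest value there has no exact level and no size is given. In each of these 3 pairs the arrays lay on different slides, so genotype and slide cannot be told apart. After 18 h the smallest unadjusted p was that of Slc27a3, for a fatty acid transport protein, with a difference of -2.25 (SE 0.57, adjusted p 0.943, and 0.0776 with the block). It read 0.68, -1.96 and -2.53 on the Irf4+/- arrays at 18 h and -2.85, -3.88 and -3.81 on the Irf4-/- arrays, and the Irf4+/- array of experiment A stood above all others.

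Of 24 carriers and partners listed under names other than Slc, 20 were tested. In Irf4+/- cells 0 rose and 1 fell at each time, against 1.99% of all genes that fell at 4 h and 2.06% at 18 h. Slco3a1, an organic anion carrier gene, fell at 18 h by 1.87 in Irf4+/- and 1.78 in Irf4-/- cells on the log2 scale (adjusted p 0.00442 and 0.00746). Mfsd6 fell at 4 h by 1.65 and 1.48 (adjusted p 0.00713 and 0.0155). The mitochondrial pyruvate carrier genes Mpc1 and Mpc2, and Bsg, the partner of monocarboxylate carriers, were not called without the block.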

How the data were processed

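RNA of 18 macrophage cultures was hybridised to single-colour Agilent arrays of 41174 probes. Per the submitters' processing notes, Agilent Feature Extraction 9.5.1 made the spot values; the deposited processed intensity is background-corrected by that software, per the file headers. A deposited table of log2 values for the whole series matched each array's difference from the Irf4+/- mock array of its experiment (lowest correlation 0.998) and served as an alternative. Control and outlier spots were left out. Each array's 75th percentile (intensity 719 to 1961) was subtracted on the log2 scale, and 63.4% to 74.4% of spots per array were well above background; the number of arrays limits the precision. Gene names came from accessions through RefSeq where possible. limma 3.58.1 (R 4.3.3) fitted all 6 groups to 15091 genes, with Benjamini-Hochberg adjustment and a threshold of 0.05. Fold changes are 2 to the power of the log2 change.

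The letters A, B and C mark littermate experiments, so they pair arrays: deviations of arrays with the same letter correlated with a median of 0.634 (0.438 to 0.875 over 45 pairs). The fit without the block is the main one, as planned, and the block is given beside it. Members and lists were chosen with earlier results of these data known. Carriers named are those called (up to 10 a direction against mock, up to 6 otherwise) and 63 listed by name, of which 59 were members; others are said to be picked after their values were seen, and Slc16a13 at 4 h in Irf4+/- was the 11th rise. Levels of different probes were not ranked. The fit was tested on simulated data. Alternatives were other backgrounds, scalings, filters, probes, blocks, and arrays left out. Some listed carriers are not reported here.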

Additional observations from a re-analysis of the deposited data

How the results depend on the processing

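Counts below are of carriers called, in the order 4 h and 18 h against mock in Irf4+/-, 4 h and 18 h against mock in Irf4-/-, then 18 h against 4 h in Irf4+/- and in Irf4-/-; the counts reported were 16, 14, 12, 12, 6 and 5. With the experiment as a replicate block, which pairs the arrays, they were 65, 51, 63, 48, 44 and 34, and 1 for the genotypes in mock. Blocks by pool of cells gave 96, 78, 100, 78, 70 and 63, and by slide, as a random block, 97, 67, 83, 68, 63 and 67. Slide as a fixed block, added after seeing the data, gave 93, 54, 70, 60, 49 and 57. All 64 named calls held under the replicate, pool and random slide blocks. Fitting only the compared groups, with fewer arrays to estimate the spread, gave 5 and 2 in Irf4+/-, 2 at 18 h in Irf4-/-, and 0 and 0 between times. Median scaling gave 9 and 7 at 18 h. Without the filter on dim probes the counts were 10 and 9 in Irf4+/-, 6 at 18 h in Irf4-/- and 2 between times there. Normexp gave 7, 3, 7, 2, 1 and 0 and turned Slc36a2 at 18 h in Irf4+/- to 0.969 (adjusted p 0.22); the cause was not tested. Normexp without spots far dimmer than their background, added after seeing the data, gave 14, 16, 12, 10, 6 and 4. The deposited table gave 66, 53, 27, 20, 16 and 11; it takes each array against the Irf4+/- mock array of its experiment. With 1 array of the compared groups left out in turn, the ranges were 8 to 14, 7 to 13, 7 to 15, 1 to 10, 3 to 5 and 1 to 3. Omissions of arrays from the other groups are not part of these ranges. Quantile normalization, the mean of all probes and a filter on all arrays kept each count within 1.5 times. Counts for the genotypes and for the difference in response were 0 in each alternative run for them other than the block in mock, as named; the genotypes were not compared with slide as a fixed block. In all, 13 calls held in every setting, array omissions included. Signal over background limits the 30 dim members, and 3 arrays a group limit all tests.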
